A study of Mus musculus with 12 samples.

Results

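Immediate early genes are genes whose transcription starts within minutes of a stimulus without new protein synthesis. The 10 examined here were Fos, Fosb, Jun, Junb, Egr1, Egr2, Nr4a1, Npas4, Arc and Ier2, chosen by symbol as a textbook set. They were looked up in the H4K8ac peak lists by the gene name that each peak had been assigned, and 8 of the 10 had at least 1 peak, of 23433 genes with a peak in any list. Jun and Npas4 had no assigned peak and were followed by position only. H4K8ac, acetylation of lysine 8 on histone H4, had been mapped by ChIP-seq (sequencing of immunoprecipitated chromatin) in oligodendrocyte progenitor cells (OPCs), the glial cells that produce myelin-forming oligodendrocytes. All cells came from the forebrain of mice with the genotype Pdgfrα H2BEGFP, in which cells that use Pdgfra carry a green nuclear protein. They were collected by sorting at postnatal day 5 (neonatal) or postnatal day 60 (adult), and nuclei were crosslinked with paraformaldehyde. Each age had 3 H4K8ac libraries, labelled as biological replicates and made with the same Active Motif antibody. The labels do not say whether animals were pooled, and the 6 input libraries were not analysed here. The reporter follows 1 gene that other cell types, such as perivascular fibroblasts, can also use.

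At rest, immediate early promoters are commonly held ready for use by serum response factor, bound to CArG boxes, and by CREB, bound to cyclic AMP response elements. Calcium or growth factor signals then activate these factors, which recruit histone acetyltransferases, and acetylated histone tails attract bromodomain proteins that help release paused RNA polymerase. The products are mostly transcription factors, and several of them shape how glia and neurons respond to activity and injury. Enzymatic dissociation and sorting of tissue are themselves stimuli that can switch these genes on. No unsorted tissue and no RNA were analysed here, so the part of sorting in the values below was not tested.

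The libraries differed in how many peaks had been called. In replicates 1, 2 and 3 there were 9097, 31189 and 7353 neonatal and 72278, 72661 and 77002 adult peaks, so neonatal replicate 2 stood apart from the other neonatal libraries. Reads per library are unknown from the lists, and results were therefore also computed from the 7353 strongest peaks of each library, called the equal list length below. That cut kept every peak of neonatal replicate 3 but only a part of each other list, so it compares ranks within lists and not signal. The cells carried peaks at OPC genes: over 8 OPC markers, assigned peaks summed to 9.95, 33.3 and 4.29 kb in the neonatal and 58.5, 62.4 and 85.2 kb in the adult libraries. The adult mean was higher for 5 of these markers and lower for 3, namely Ptprz1, Vcan and Pdgfra, the gene of the reporter, which had 1638, 6124 and 513 bp in neonatal and 1586, 1205 and 2119 bp in adult libraries. Summed over a list, markers of other cell types were higher in the adult libraries too, but single markers were divided. Over 8 neuron markers the sums were 0, 2.54 and 0.192 kb in neonatal and 7.12, 8.11 and 10.7 kb in adult libraries, with Snap25 and Stmn2 at 0 in all 6, and the adult mean was higher for 3 markers and lower for 3. Over 8 astrocyte markers they were 0.957, 7.25 and 0 kb against 16.7, 18.2 and 29.1 kb, and the adult mean was higher for 5 markers and lower for Gfap, Gja1 and Sox9. Over 8 endothelial markers they were 0, 2.2 and 0 kb against 4.35, 5.36 and 6.22 kb, with Tek and Ly6c1 at 0, the adult mean higher for 4 markers and lower for 2. Over 8 microglia markers they were 0, 0.186 and 0 kb against 4.1, 3.73 and 4.05 kb, where 6 markers, among them Csf1r, P2ry12 and Tmem119, were at 0 in every library, and of the other 2 Cx3cr1 was higher and Ptprc lower in adult libraries. The part of such cells in the results below was not tested, and in these bulk samples more cells with a mark cannot be told apart from more of the mark per cell.

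The promoter sequences of 5 of the genes are shown because they could hold response elements known from immediate early promoters, and because peaks covered them unequally. Of the 5, 4 held a match to the elements marked below, and variants of these were not marked. Each line gives the 250 bases before a transcription start, 5′ to 3′ on the gene's own strand, from RefSeq promoters of build GRCm38.p6. The windows are Fos at chr12:85473640-85473889 on the plus strand, Nr4a1 at chr15:101266596-101266845 on the plus strand, Egr2 at chr10:67537619-67537868 on the plus strand, Npas4 at chr19:4989972-4990221 on the minus strand and Jun at chr4:95052223-95052472 on the minus strand. Capitals mark TGACG or its reverse complement CGTCA, the shorter form of the cyclic AMP response element, and the CArG box.
Fos: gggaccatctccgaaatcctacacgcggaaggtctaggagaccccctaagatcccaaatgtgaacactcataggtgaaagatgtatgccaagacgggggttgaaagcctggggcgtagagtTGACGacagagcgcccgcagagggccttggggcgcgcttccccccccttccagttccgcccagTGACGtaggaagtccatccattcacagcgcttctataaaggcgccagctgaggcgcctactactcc
Nr4a1: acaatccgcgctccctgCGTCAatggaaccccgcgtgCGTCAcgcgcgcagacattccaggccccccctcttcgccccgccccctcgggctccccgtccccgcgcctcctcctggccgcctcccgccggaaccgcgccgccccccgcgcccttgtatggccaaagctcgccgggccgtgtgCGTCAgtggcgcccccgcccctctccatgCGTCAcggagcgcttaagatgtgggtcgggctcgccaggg
Egr2: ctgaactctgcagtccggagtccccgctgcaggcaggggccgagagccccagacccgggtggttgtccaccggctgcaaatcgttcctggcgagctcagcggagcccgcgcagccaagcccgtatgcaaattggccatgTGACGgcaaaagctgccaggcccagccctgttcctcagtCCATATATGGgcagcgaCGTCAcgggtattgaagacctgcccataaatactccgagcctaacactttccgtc
Npas4: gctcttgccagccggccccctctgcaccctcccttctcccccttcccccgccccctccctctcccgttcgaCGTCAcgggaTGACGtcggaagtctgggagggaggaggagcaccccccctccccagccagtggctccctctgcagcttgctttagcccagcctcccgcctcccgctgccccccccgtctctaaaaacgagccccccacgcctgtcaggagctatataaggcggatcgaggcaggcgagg
Jun: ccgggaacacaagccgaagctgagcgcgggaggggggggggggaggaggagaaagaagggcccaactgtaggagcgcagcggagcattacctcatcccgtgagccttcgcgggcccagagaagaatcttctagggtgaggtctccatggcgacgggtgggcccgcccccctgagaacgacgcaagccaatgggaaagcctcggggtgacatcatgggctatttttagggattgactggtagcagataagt

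In the Fos window, TGACG started 129 and 66 bases before the transcription start and TATAAA lay nearer to it. The Nr4a1, Egr2 and Npas4 windows precede internal starts and not the first RefSeq start of each gene. The Nr4a1 window held 4 matches of TGACG or CGTCA. The Egr2 window held 2 such matches with a CArG box between them, the Npas4 window held 2, and the Jun window held 0. RefSeq windows were matched for 7 of the 10 genes, 11 windows in all, and TGACG in either direction occurred in at least 1 window of 6 of the 7 genes, against 17.8% of all 32851 windows. Within these windows Egr2 alone of the 7 had a CArG box, found in 1.47% of all windows. Sequence outside the windows was not searched, and Egr1, Arc and Ier2 had no window. The full element TGACGTCA (1.55% of all windows) and the AP-1 element TGANTCA (6.75%) were in 0 of the 7 genes' windows. These are counts of letters on both strands, overlapping matches included, and the genes have unequal numbers of windows.

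Peaks covered these windows differently. In the Fos window, 0, 250 and 161 of the 250 bases lay under a peak in the neonatal libraries and all 250 in each adult library. The Nr4a1 window was covered over 0 bases in each neonatal library and over all 250 in each adult library. The Egr2 window was covered over 0, 112 and 0 bases in neonatal and 148, 167 and 186 bases in adult libraries. In the Nr4a1 and Egr2 windows shown, every adult library was therefore above every neonatal one, and for Fos neonatal replicate 2 equalled the adults. Of the windows not shown, Egr2 at chr10:67535249-67535498 had 0, 42 and 0 against 115, 0 and 48 bases, so the ages overlapped. The remaining Egr2 windows had adults above. The Junb window had 0, 0 and 0 against 0, 91 and 250 bases, and the Fosb window had 0 in every library. The share of all windows with adults above was not computed. The Jun and Npas4 windows held 0 peak bases in all 6 libraries. Over all windows of the table, 7.36%, 25.5% and 6.26% overlapped a peak in neonatal and 35.2%, 33.3% and 36.7% in adult libraries.

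As a set, the immediate early genes carried more H4K8ac peaks in adult than in neonatal libraries, with neonatal replicate 2 close to the adults. In the order of replicates 1, 2 and 3, kept throughout, they had 9, 41 and 5 assigned neonatal peaks and 53, 52 and 44 adult ones. The lists themselves were longer in adults, and per 1000 peaks of a list the genes had 0.989, 1.31 and 0.68 peaks in neonatal and 0.733, 0.716 and 0.571 in adult libraries, so their share of the lists was not higher in adults. Of these, 3, 26 and 3 were promoter peaks (within 3000 bp of a transcription start) in the neonatal and 25, 30 and 25 in the adult lists. The other peaks, nearly all distal intergenic, numbered 6, 15 and 2 in neonatal and 28, 22 and 19 in adult libraries. Neonatal replicate 2 thus had as many promoter peaks as the adults and fewer distal ones. Promoter peaks made up 33.3%, 63.4% and 60.0% of the genes' neonatal and 47.2%, 57.7% and 56.8% of their adult peaks, against 85.2%, 67.5% and 88.8% and then 43.9%, 43.1% and 40.4% of all peaks in those lists.

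The number of the 10 genes with an assigned promoter peak was 2, 8 and 2 in neonatal and 8, 8 and 8 in adult libraries, a mean of 4 ± 3.46 (SD, n = 3) against 8 ± 0 (SD, n = 3). Counted by position, from any peak within 3000 bp of the RefSeq gene start, it was 3, 9 and 4 against 10, 9 and 9. The 10 in adult replicate 1 included Npas4 by a peak of 144 bp assigned to another gene. That peak lay outside the Npas4 window printed above. Over all 23433 genes, the share with an assigned promoter peak was 27.2%, 58.5% and 24.0% in neonatal and 66.2%, 64.5% and 66.1% in adult libraries. Fos and Nr4a1 had an assigned promoter peak in all 3 neonatal libraries, whereas Fosb, Junb, Egr1, Egr2, Arc and Ier2 had one in neonatal replicate 2 only. A promoter peak in 3 adult and 0 neonatal libraries was found for 0 of the 8 genes with a peak, and for 9.60% of all genes. At equal list length the counts became 1, 5 and 2 in neonatal and 4, 2 and 3 in adult libraries, a difference of 0.333 genes, and the share over all genes was 23.6%, 27.0% and 24.0% against 25.9%, 23.1% and 23.9%.

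**Figure D1:**
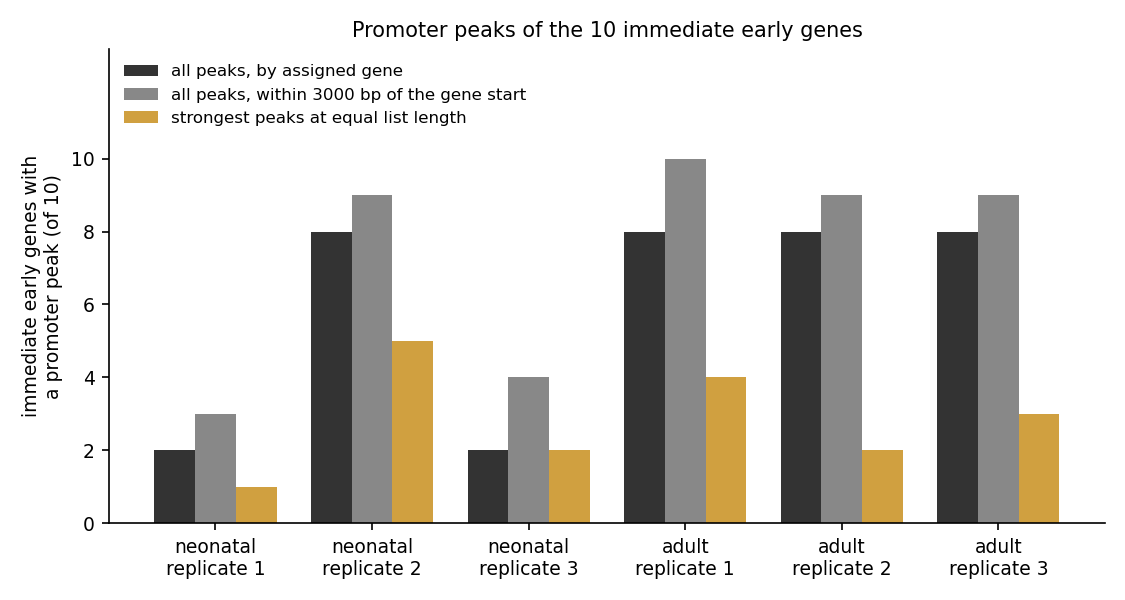
Number of the 10 immediate early genes with a promoter peak (vertical axis) in each of the 6 libraries (horizontal axis), by assigned gene, by position within 3000 bp of the gene start, and among the 7353 strongest peaks by assigned gene. Dark bars stand at 2, 8 and 2 for the neonatal and at 8 for each adult library, and the bars at equal list length overlap between the ages.

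Covered length gives a finer measure than presence. The bases under assigned peaks summed to 3317, 21115 and 1245 bp in neonatal and to 37646, 37322 and 41917 bp in adult libraries over the genes. Adult libraries were all above the highest neonatal library for 5 of the 8 genes with a peak (Fos, Fosb, Egr2, Nr4a1 and Arc). The same held for 60.0% of all genes and 68.2% of protein-coding genes, so the count is near the background. The reverse order was found for 0 of the 8 and for 0.303% of all genes. Without neonatal replicate 2, it was 8 of 8 with adults above, against 70.6% of all genes. Counted from all peaks within 10 kb of the gene, adults were above for 6 of the 10 genes, Jun and Junb among them and Fos not, against 54.1% of 21896 protein-coding genes. For the widest promoter peak it was 5 of 8 genes (Fosb, Egr2, Nr4a1, Arc and Ier2), against 45.9% of all genes. The exact two-sided permutation test over the 20 arrangements of 3 against 3 libraries cannot give a p below 0.1, and the smallest p adjusted over all genes was 0.166. No gene could therefore pass a threshold of 0.05, and the genes are described by their values.

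**Figure D2:**
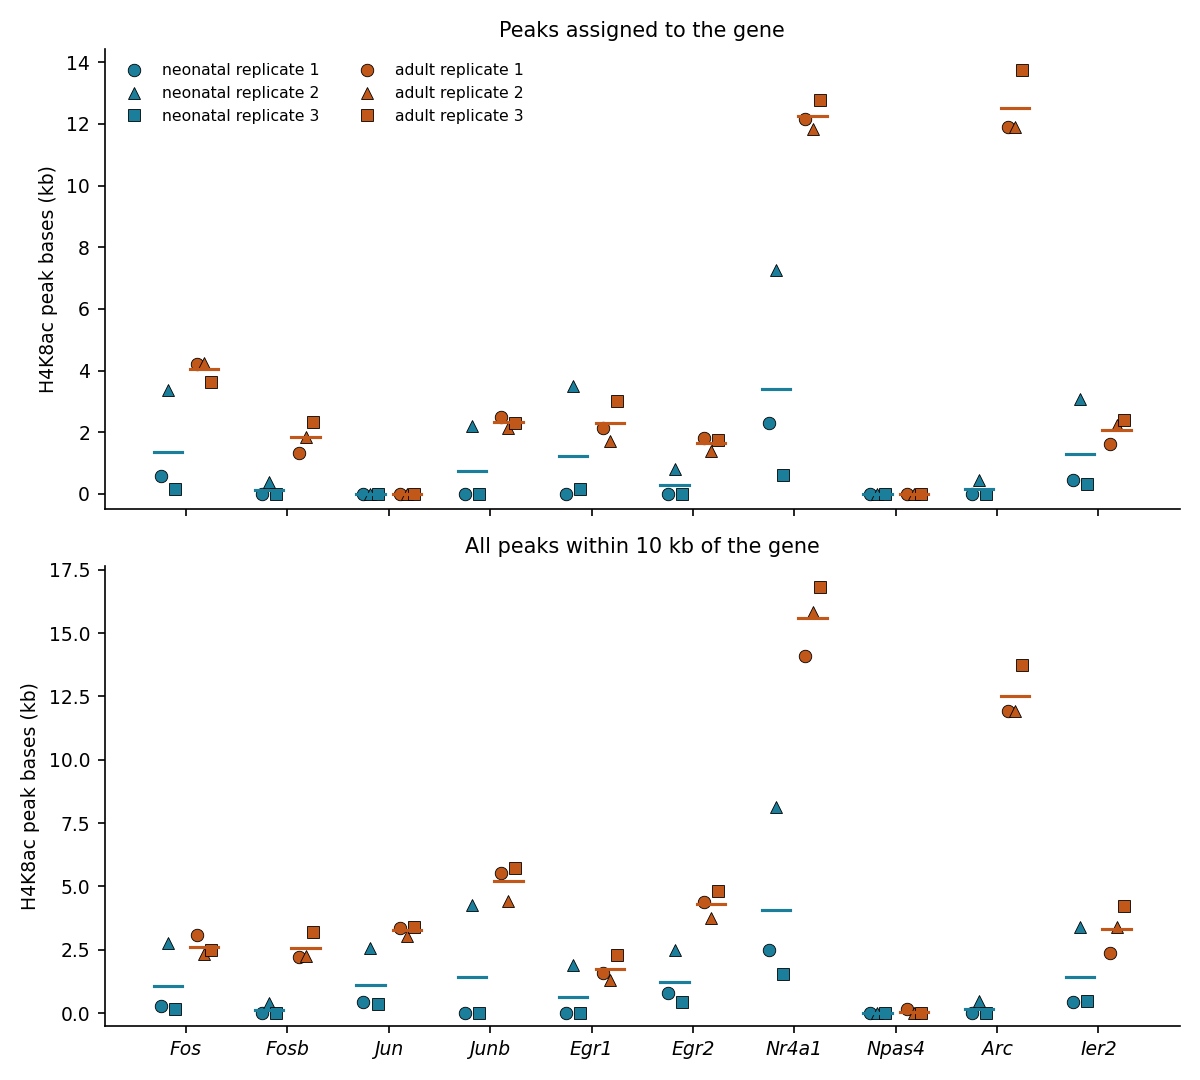
Bases under H4K8ac peaks in kb (vertical axes) for each immediate early gene (horizontal axis), from peaks assigned to the gene (upper plot) and from all peaks within 10 kb of it (lower plot). Points are the 6 libraries with replicates by shape, horizontal lines are the means of each age, and Arc and Nr4a1 lie above 11 kb in every adult library.

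The AP-1 subunits were examined first. Fos, which pairs with Jun proteins to form the factor AP-1, lies at chr12:85473890-85477274 on the plus strand, alone in a stretch with its nearest protein-coding neighbours Tmed10 and Jdp2 at 99.2 and 121 kb. Its assigned peaks covered 567, 3379 and 161 bp in neonatal and 4214, 4256 and 3630 bp in adult libraries. Every adult library was above every neonatal one, and neonatal replicate 2 lay close beneath the adults. The means were 1369 ± 1753 and 4033 ± 350 bp (SD, n = 3 each), a difference of 2664 bp (exact permutation p = 0.1, adjusted p = 0.166). The region over the transcription start, chr12:85473122-85474600, had 0, 1028 and 161 bp of peak in neonatal and 1479, 412 and 962 bp in adult libraries, with the ages overlapping. A region upstream of it, chr12:85471830-85472858, had 280, 929 and 0 bp against 734, 858 and 792 bp, again overlapping. Of the 9 distal Fos regions, 2 had every adult above every neonatal library, as had 0 of the 2 promoter regions.

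The most upstream region with peaks assigned to Fos in all 3 adult libraries, chr12:85455437-85456098, had 287, 301 and 0 bp in neonatal and 519, 535 and 662 bp in adult libraries. The first downstream region, chr12:85485686-85486647, had 0, 264 and 0 bp against 525, 770 and 732 bp. These are the 2 with adults above, and at least 1 adult library had 0 bp assigned to Fos in each of the other 7. At 1 of those, chr12:85454770-85455372, adult replicates 1 and 3 and neonatal replicate 2 had peaks that were assigned to Gm40477. In the authors' deposited table of sites that differ between the ages, Fos had 5 sites, all distal, all higher in adult cells, with log2 fold changes from 1.14 to 2.99. None of the authors' deposited sites lay on the Fos promoter. At equal list length, Fos kept 287, 718 and 161 bp in neonatal and 0 bp in each adult library, so every neonatal library was then above every adult one. That order was found for 1 of the 8 genes and for 2.15% of all genes, and the order with adults above for 3 of 8 (Egr2, Nr4a1 and Arc) and 15.9% of all genes.

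Fosb encodes a close relative of Fos and lies at chr7:19302696-19310118 on the minus strand. Its peaks covered 0, 388 and 0 bp in neonatal and 1334, 1856 and 2326 bp in adult libraries, with every adult above every neonatal library (exact permutation p = 0.1, adjusted p = 0.166). Its promoter peaks were narrow. The widest measured 0, 241 and 0 bp in neonatal and 338, 375 and 404 bp in adult libraries, and among genes with a promoter peak, 86.2%, 67.4% and 87.3% had a wider promoter domain (peaks up to 1000 bp apart joined) in adult replicates 1, 2 and 3. The widest Fosb region lay instead upstream of the gene at chr7:19315884-19317095, with 695, 1128 and 1048 bp in adult libraries and 0 in each neonatal one. The authors' deposited table had a site there with log2 4.89 (adjusted p = 2.24e-08), at the 92.6 percentile of its listed sites, while the Fosb promoter site in the authors' deposited table had log2 1.42 (adjusted p = 0.00325). Fosb had 0 bp at equal list length in every library.

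Jun encodes a partner of the Fos proteins in AP-1 and lies at chr4:95049036-95052222 on the minus strand. It had no assigned peak because the peaks over its body and promoter had been given to Junos, the antisense gene that starts beside it, and 1 peak in adult replicate 3 to Gm12703. By position, peaks within 10 kb covered 450, 2550 and 366 bp in neonatal and 3348, 3032 and 3409 bp in adult libraries, without overlap. The means were 1122 ± 1237 and 3263 ± 202 bp (SD, n = 3 each), a difference of 2141 bp (exact permutation p = 0.1). Apart from the 199 bp given to Gm12703, the bases within 3000 bp of the Jun start fell into 3 blocks. The block upstream, chr4:95052505-95053341, was the 1 found in all 6 libraries, with 450, 660 and 366 bp in neonatal and 809, 796 and 780 bp in adult libraries.

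The block over the Jun gene body, chr4:95050065-95052178, had 0, 1624 and 0 bp against 2106, 1756 and 1986 bp. The block farthest upstream of Jun, chr4:95053476-95053972, had 0, 266 and 0 bp against 433, 480 and 444 bp. The window of sequence printed above lies in the gap between the gene body block and the upstream one, where no library had a peak. In the authors' deposited table the 3 sites at Jun had log2 2.29 (adjusted p = 9.98e-07) on the gene body, 1.91 (adjusted p = 0.00014) upstream and 1.20 (adjusted p = 0.0499) farthest upstream. Unlike Fos, Jun kept peaks at equal list length in all 6 libraries, 450, 1539 and 366 bp in neonatal and 2915, 2152 and 2766 bp in adult libraries, and adults remained above. This combination of position and equal list length was chosen after the data were seen.

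Junb, whose product also joins AP-1, lies at chr8:84976909-84978748 on the minus strand, 2.1 kb from Prdx2. Its peaks covered 0, 2212 and 0 bp in neonatal and 2505, 2149 and 2290 bp in adult libraries. Neonatal replicate 2 fell within the adult range, so the ages overlapped, and the other neonatal libraries had none. The means were 737 ± 1277 and 2315 ± 179 bp (SD, n = 3 each), with exact permutation p = 0.2 and adjusted p = 0.305. Peaks covered 0%, 86.9% and 0% of the Junb gene body in neonatal and 77.9%, 62.0% and 65.8% in adult libraries, the highest share being that of neonatal replicate 2. The authors' deposited table held Junb sites of log2 1.63 (adjusted p = 0.00472) and 1.28 (adjusted p = 0.0318), both in the promoter.

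The zinc finger factors Egr1 and Egr2 came next. Egr1, an early growth response factor induced through serum response elements, covered 0, 3492 and 157 bp in neonatal and 2120, 1713 and 3009 bp in adult libraries. Neonatal replicate 2 was the highest of the 6, so the ages overlapped, and the means of 1216 ± 1972 and 2281 ± 663 bp (SD, n = 3 each) differed by less than the neonatal spread (exact permutation p = 0.4, adjusted p = 0.518). The Egr1 promoter had 2 sites in the authors' deposited table, log2 1.27 (adjusted p = 0.0469) and 1.26 (adjusted p = 0.0404), both close to the limit of that table. In neonatal replicate 2 the joined Egr1 promoter domain was 2684 bp, and 2.09% of genes with a promoter peak had a wider one. In the adult libraries 21.6%, 22.3% and 21.0% of such genes had a wider one. A cluster downstream of Egr1 held 1 region found in all adult libraries, with 0, 916 and 157 bp in neonatal and 523, 404 and 714 bp in adult libraries. The other 3 regions of that cluster were found in neonatal replicate 2 alone.

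Egr2, a factor best known in Schwann cells, where it drives myelin genes, lies at chr10:67534469-67542188 on the plus strand. Its peaks covered 0, 819 and 0 bp in neonatal and 1813, 1378 and 1742 bp in adult libraries, with every adult above every neonatal library. The means were 273 ± 473 and 1644 ± 233 bp (SD, n = 3 each), with exact permutation p = 0.1 and adjusted p = 0.166. The fold enrichment of a peak is the authors' own value and was read within its list only. The strongest Egr2 promoter peak had a fold of 17.6, 17.2 and 15.5 in adult replicates 1, 2 and 3, and ranked within the strongest 3.14%, 1.46% and 2.87% of those lists. The main block, chr10:67536278-67537804, reached into the Egr2 window printed above and had 0, 566 and 0 bp in neonatal and 975, 777 and 1491 bp in adult libraries. With lists of equal length Egr2 had 0, 191 and 0 bp against 240, 301 and 1491 bp, so adults were still above. The Egr2 sites of the authors' deposited table had log2 1.93 (adjusted p = 0.0187) and 2.04 (adjusted p = 0.00043).

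Nr4a1 encodes an orphan nuclear receptor and had the most peaks of the set. It lies at chr15:101253902-101274795 on the plus strand. Assigned peaks covered 2302, 7277 and 596 bp in neonatal and 12152, 11835 and 12783 bp in adult libraries, without overlap between the ages. The means were 3392 ± 3471 and 12257 ± 483 bp (SD, n = 3 each), a difference of 8865 bp (exact permutation p = 0.1, adjusted p = 0.166) that 95.7% of all genes stayed below. The first start of the gene and its internal start differed. The block at the first start, chr15:101253727-101254716, was present in all 6 libraries, with 354, 932 and 443 bp in neonatal and 627, 694 and 637 bp in adult libraries, so the ages overlapped, and it had no site in the authors' deposited table.

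The block at the internal Nr4a1 start, chr15:101265873-101269117, had 0, 936 and 0 bp in neonatal and 2541, 2457 and 3245 bp in adult libraries, with no overlap. The authors' deposited table had a site there with log2 2.47 (adjusted p = 1.96e-06), the highest of its 8 Nr4a1 sites, which ran from 1.46 up. The adjoining block, chr15:101269384-101271596, had 0, 552 and 0 bp against 2066, 2181 and 2213 bp. The block at the end of the gene, chr15:101271779-101274413, was in all 6 libraries with 166, 1103 and 153 bp in neonatal and 1931, 2635 and 2113 bp in adult libraries. Joined across short gaps, the Nr4a1 promoter domain was 354, 2364 and 443 bp in neonatal and 8197, 11388 and 11631 bp in adult libraries. With lists of equal length Nr4a1 had 2302, 2259 and 596 bp against 2771, 5510 and 3943 bp, and it was the only one of the 10 with an assigned promoter peak in all 6 libraries.

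Npas4, a factor induced by calcium entry and largely restricted to neurons, lies at chr19:4984353-5003439 on the minus strand in RefSeq. Within 10 kb of it the only peak was 144 bp wide, at chr19:5002030-5002173 in adult replicate 1, and had been assigned to Gm50382. The authors' deposited table had no site within 10 kb of Npas4. Its printed window, at an internal start, had 2 matches of TGACG or CGTCA, as many as the Fos window, and no peak in any library.

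Arc encodes a cytoskeleton-associated protein that regulates receptors at synapses. It showed the largest age difference of the set. It lies at chr15:74669081-74672570 on the minus strand, 32.3 kb from Mroh4 and 29.8 kb from Jrk. Its peaks covered 0, 460 and 0 bp in neonatal and 11908, 11917 and 13738 bp in adult libraries, so that the lowest adult library stood far above neonatal replicate 2. The means were 153 ± 266 and 12521 ± 1054 bp (SD, n = 3 each), a difference of 12368 bp (exact permutation p = 0.1, adjusted p = 0.166). Among all genes 97.3% had a smaller difference. Peaks covered 0%, 6.7% and 0% of the Arc gene body in neonatal and 97.7%, 96.0% and 99.6% in adult libraries.

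In adult cells the Arc peaks formed a nearly continuous block that ran from the promoter through the gene and beyond its end. Joined across gaps of up to 1000 bp, the adult domain measured 14.1, 13.8 and 15.3 kb, and 0.838%, 1.03% and 1.5% of genes with a promoter peak had a wider one. The median domain over such genes was 1066, 1073 and 1281 bp. In neonatal replicate 2 the Arc domain was 996 bp. Within it, the part downstream of the gene, chr15:74660318-74665748, had 4410, 4661 and 5259 bp in adult libraries and 0 in each neonatal one. A site there in the authors' deposited table, chr15:74664946-74665345, had log2 6.90 (adjusted p = 7.12e-11), at the 99.6 percentile of all listed sites. The other Arc sites in the authors' deposited table had log2 2.72 (adjusted p = 0.00121), 2.69 (adjusted p = 5.74e-05) and 1.79 (adjusted p = 0.0471). At equal list length Arc kept 8964, 6064 and 11053 bp in adult and 0 bp in each neonatal library. Arc is strongly used in excitatory neurons. Of the 8 neuron markers, 3 had every adult above every neonatal library, against 60.0% of all and 68.2% of protein-coding genes. The 3 markers were Tubb3 (0, 422 and 0 bp against 3245, 4603 and 4742 bp), Rbfox3 (0, 536 and 0 bp against 3316, 3116 and 5533 bp) and Slc17a7, a marker of excitatory neurons (0 bp in each neonatal library against 220, 391 and 439 bp). Syt1, Gad1 and Gad2 had a lower mean in adult libraries, and Snap25 and Stmn2 had no peak. The part of neurons in the Arc values was not tested.

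**Figure D3:**
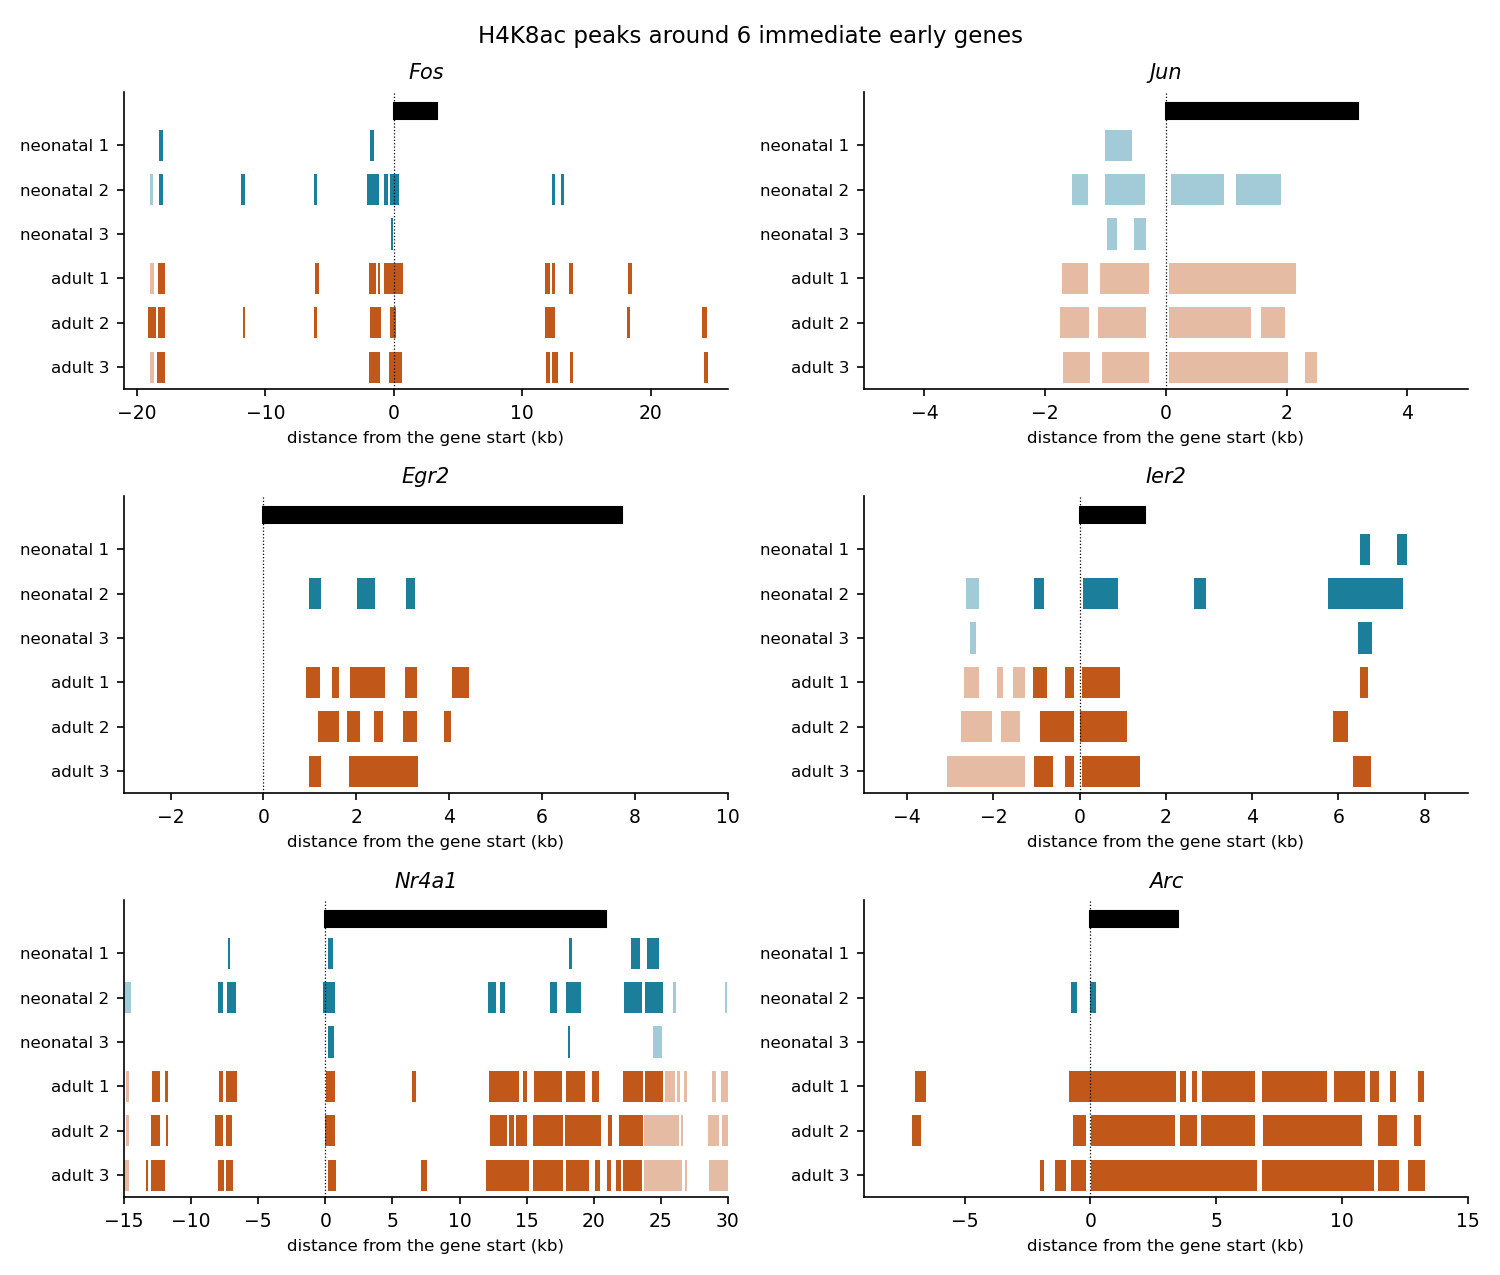
Peaks of each library around Fos, Jun, Egr2, Ier2, Nr4a1 and Arc as bars along the distance from the RefSeq gene start in kb, positive in the direction of transcription. Each row is 1 library, black bars are the gene bodies, dark bars are peaks assigned to the gene and pale bars are peaks assigned to another gene, which at Jun are all of them, and Arc shows the long adult block against 2 short neonatal peaks.

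Ier2, a short gene whose product is a nuclear protein of growth factor responses, lies at chr8:84661331-84662852 on the minus strand. Its peaks covered 448, 3088 and 331 bp in neonatal and 1600, 2218 and 2399 bp in adult libraries. Neonatal replicate 2 was the highest of the 6, and the means of 1289 ± 1559 and 2072 ± 419 bp (SD, n = 3 each) differed by less than the neonatal spread (exact permutation p = 0.4, adjusted p = 0.518). Promoter and distal peaks went in opposite directions at Ier2. The promoter block, chr8:84661463-84662835, had 0, 826 and 0 bp in neonatal and 899, 1087 and 1324 bp in adult libraries, with adults above. The region downstream of the gene, chr8:84655266-84657096, was found in all 6 libraries, with 448, 1745 and 331 bp in neonatal and 166, 344 and 421 bp in adult libraries. There neonatal replicates 1 and 2 were above every adult library and neonatal replicate 3 fell within the adult range.

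In the authors' deposited table a site within this downstream Ier2 region, chr8:84656112-84656511, had log2 -1.04 (adjusted p = 0.0455). The peak of adult replicate 2 in the region did not overlap that site. The promoter site in the authors' deposited table, chr8:84663005-84663404, had log2 2.03 (adjusted p = 0.00162). It lay upstream of the promoter block above, in the region chr8:84662980-84663941. That region had 0, 249 and 0 bp in neonatal and 535, 787 and 654 bp in adult libraries. The downstream site was the only one of the 27 sites of the set in the authors' deposited table that was higher in neonatal cells. Ier2 at equal list length had 230, 0 and 331 bp in neonatal and 0 bp in each adult library.

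Over the set, the authors' deposited table held 27 sites, 14 of promoter class and 13 of other classes, belonging to 8 of the 10 genes. Of these 26 were higher in adult cells, or 96.3%, against 99.4% of all 43888 sites listed in the authors' deposited table, so the share was no higher than over the whole table. The sites listed as higher in adult cells were 79.6% of the 54838 tested sites that the p-values in the authors' deposited table imply. In the authors' deposited table the 27 sites had a median log2 of 1.79, and all listed sites had one of 2.41, with 6 of the 27 above the latter. The promoter-class sites had a median of 1.78 and the other sites of 1.79 in the authors' deposited table. A site took its class from the overlapping peak and not from its own position. The promoter-class Arc site, chr15:74667889-74668288, thus lay past the end of the gene. So did the promoter-class Nr4a1 sites chr15:101274910-101275309 and chr15:101276928-101277327. The sites above the median of all listed sites lay at Arc, Fosb, Fos and Nr4a1.

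**Figure D4:**
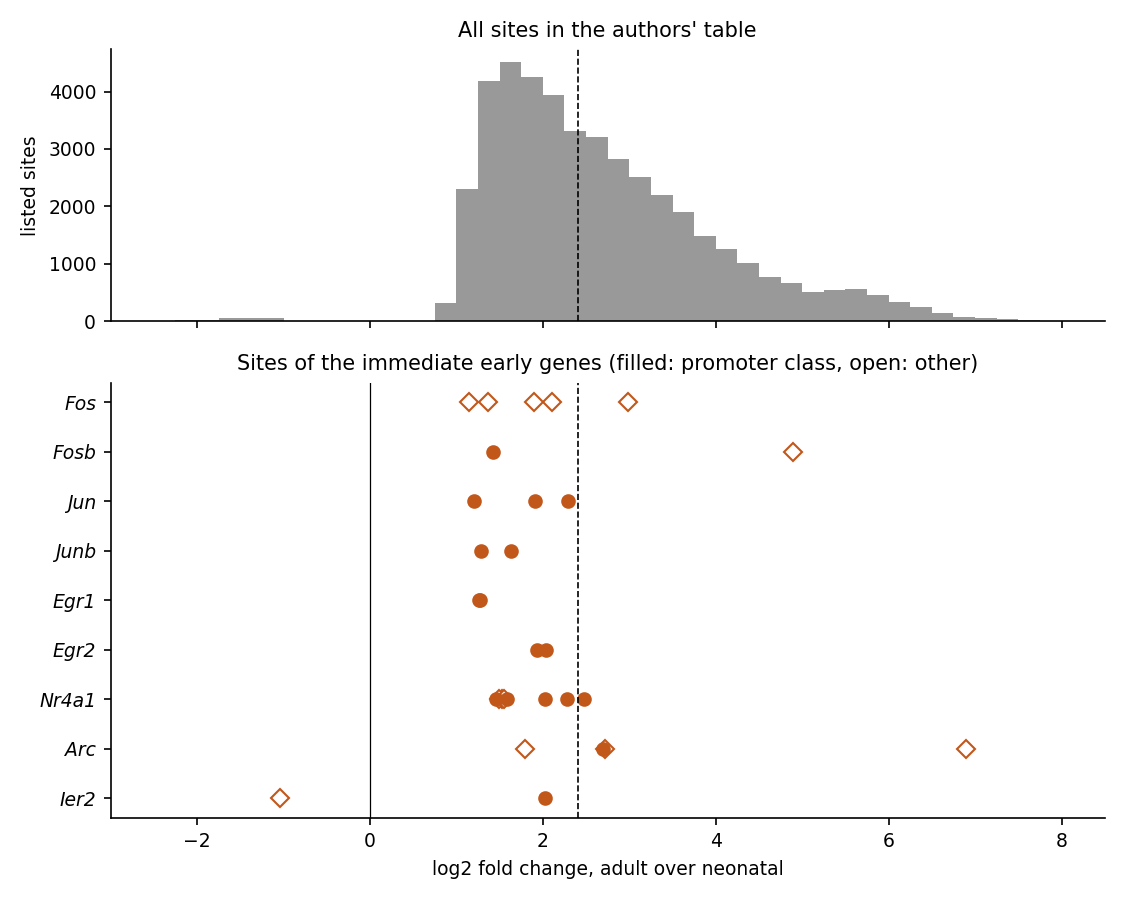
Log2 fold change, adult over neonatal, of all sites in the authors' deposited table (upper plot, number of sites) and of the sites at each immediate early gene (lower plot, filled for promoter class and open for other classes, with the sites at Jun placed by position). The dashed line is the median of all listed sites at 2.41, and most immediate early sites lie to its left, with Arc at 6.90 and Fosb at 4.89 to its right and 1 Ier2 site at -1.04.

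The peaks assigned to the set in the 6 libraries merged into 55 regions, 27 with a promoter peak and 28 without. A peak assigned to the gene in all 3 adult libraries was found in 30 regions, 19 of the 27 promoter regions and 11 of the 28 others. Only 3 regions had an assigned peak in all 6 libraries, namely the Nr4a1 regions at the first start and at the end of the gene and the downstream Ier2 region. Peaks assigned to another gene were not counted here. At chr15:101277720-101279072, past the end of Nr4a1, neonatal replicate 3 and adult replicates 2 and 3 had peaks that were assigned to Atg101. In 4 regions there was an assigned peak in all 3 adult and in 0 neonatal libraries, and all 4 were without a promoter peak: 1 upstream of Fosb, 2 downstream of Arc and 1 upstream of Nr4a1 at chr15:101240906-101241918 (556, 688 and 1013 bp). Found in neonatal libraries only were 6 regions, all 6 in neonatal replicate 2 alone. The same shares over all merged regions of the lists were not computed, here or for the Fos regions above. Promoter peaks made up 85.2%, 67.5% and 88.8% of all neonatal and 43.9%, 43.1% and 40.4% of all adult peaks.

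Other genes of the same response were described in the same way. Of 14 other inducible transcription factors, all 14 had peaks, and every adult library was above every neonatal one for 8, against 60.0% of all genes. The largest differences were at Nr4a3, a relative of Nr4a1, with 447, 2265 and 203 bp in neonatal and 5340, 4980 and 7846 bp in adult libraries, and at Csrnp1, with 0, 1702 and 0 bp against 4140, 3898 and 4841 bp. Klf6, a zinc finger factor, had 314, 1958 and 354 bp against 3070, 2998 and 4777 bp. Atf3, a stress-induced factor, was the 1 gene of this list with a promoter peak in 3 adult and 0 neonatal libraries, a pattern of 9.60% of all genes.

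Of 14 inducible feedback and effector genes, 13 had peaks and Bdnf had none, and adults were above for 6, a lower share than the 60.0% of all genes. The clock gene Per1 had 250, 1632 and 0 bp in neonatal and 5480, 5395 and 5793 bp in adult libraries. Zfp36, whose product destabilises messenger RNAs of the response, had 0, 1521 and 186 bp against 3678, 5233 and 5866 bp. The antiproliferative gene Btg2 had 1427, 3464 and 933 bp against 3680, 4718 and 4515 bp. In each of these, which had the largest differences of the list, the adults were above every neonatal library.

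Of 12 upstream regulators, which transmit the signal to immediate early promoters, adults were above for 11. The share was 60.0% over all genes and 68.2% over protein-coding genes. Mef2d had 627, 3512 and 1084 bp in neonatal and 7128, 7534 and 9811 bp in adult libraries, and the kinase gene Mapk3 had 301, 507 and 0 bp against 2410, 2833 and 3385 bp. Srf, which encodes serum response factor, had 655, 1398 and 537 bp against 2840, 2713 and 1591 bp. Of 6 heat shock genes, which dissociation can also induce, adults were above for 5, against 60.0% of all and 68.2% of protein-coding genes. Hspa1a and Hspa1b had a promoter peak in 3 adult and 0 neonatal libraries, against 9.60% of all genes. Hsp90aa1 had 314, 766 and 0 bp against 2663, 2690 and 3315 bp.

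The median difference in covered length, adult minus neonatal, was 1643 bp over the 8 immediate early genes with a peak. Over all 23433 genes, which include non-coding ones, it was 661 bp. It was 936 bp over the other inducible factors, 815 bp over the feedback and effector genes, 1075 bp over the upstream regulators and 952 bp over the heat shock genes. It was 4866 bp over the 8 OPC markers, of which 4 had adults above every neonatal library, against 60.0% of all genes. In none of these lists did any gene have every neonatal library above every adult one with the full peak lists.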

How the data were processed

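H4K8ac ChIP-seq peak lists of 3 neonatal and 3 adult OPC libraries were analysed. Per the submitters' processing notes, Trim Galore, Bowtie2 2.4.5, SAMtools, deepTools, MACS2, DiffBind and ChIPseeker were used with build GRCm38, with no roles or settings given. Each library has its own list. In it the authors deposited for each peak a score, a fold enrichment (a linear ratio), −log10 of the p-value and −log10 of the q-value, and an annotated gene and class. The largest q-value per list was 0.0427 to 0.0489. The authors also deposited a table of sites giving log2 fold changes with their p-values, raw and adjusted. It names no direction, and positive values were read as higher in adult cells because those sites overlapped adult peaks in 85.0% to 96.7% and neonatal peaks in 10.3% to 27.8% of cases. It holds 43888 sites, and the rank and p-values give 54838 tested. Each site was annotated from the peak overlapping it by the most bases.

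Covered length is the union of a gene's assigned peaks. Ages were compared over all 23433 genes with exact two-sided permutation tests over 20 arrangements and Benjamini-Hochberg adjustment, on code tested on simulated data (Python 3.11.15, numpy 2.4.6, pandas 2.3.3, scipy 1.17.1, matplotlib 3.10.9). Coordinates are counted from 1. Reads per library are unknown, so no interval from depth was given. Alternatives were each library left out, equal list length by p-value, a q-value under 0.005, positions within 10 kb, joining of peaks within 1000 bp and a replicate block. All 10 genes are named, with at most 3 of each other list, those with the largest absolute difference. The genes and lists were chosen with earlier results of these data known.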

Additional observations from a re-analysis of the deposited data

How the results depend on the processing

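At equal list length the adult minus neonatal difference in covered bases turned to -388.7 bp for Fos (exact permutation p = 0.1), -55.0 bp for Junb, -557.0 bp for Egr1 and -187.0 bp for Ier2, and that in the widest promoter peak to -293.0 bp for Fos, -55.0 bp for Junb and -199.3 bp for Egr1. The number of genes with every adult above every neonatal library was then 3 in place of 5, and the promoter peak difference 0.333 in place of 4 genes, or -0.667 by position, an alternative chosen after seeing the data. With 1 library left out, these ranged from 5 to 8 genes (8 without neonatal replicate 2) and from 3 to 6 genes. Of the 27 sites in the authors' deposited table, 18 had an adjusted p under 0.005, and 32 sites lay within 10 kb. The cause of these shifts was not tested. By position, Jun moved from 0 to 2141 bp and Npas4 to 48 bp. Under the other alternatives the direction in covered length held for all 8 genes with a peak.

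Libraries with the same replicate number were no more alike than others. Deviations from the age means over 23433 genes correlated at -0.038, 0.025 and 0.07 for numbers 1, 2 and 3. For unlike numbers the correlations ran from -0.096 to 0.07. Whether libraries of 1 number were handled together cannot be told from these values. With the replicate block, 5 genes were higher in the adult library of every pair, and the smallest sign-flip p possible is 0.25.

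Limits are the 3 libraries per age, unknown read depth, neonatal replicate 2, and peak lists whose length differs with age.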
